A study of Homo sapiens with 118 samples.

Results

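The genes described here encode lysosomal hydrolases and lysosomal membrane proteins, together with proton pump subunits, the transcription factor TFEB and the autophagy receptor SQSTM1. The 37 genes were found in the count table as the rows whose name, without the trailing probe number, equals one of their symbols. They make up 42 of 22068 probe rows used, called features here and named as deposited. CTSH, CTSL, GLA, GUSB and NEU1 have 2 features each. Of the 42 member features, 40, from 36 genes, passed the filter on low counts in at least 1 chemical. TFEB_18651, at 0 to 7 counts per library, and GLA_18855, at 0 to 16 counts, passed it in no chemical, so nothing can be said of TFEB mRNA at this depth.

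HepaRG is an established human liver cell line, described in the labels as liver progenitor cells and used here after differentiation. Cells from 3 batches were exposed for 72 hours, with daily renewal, to 1 of 8 histone deacetylase inhibitors, each at 5 concentrations, with C1 the lowest and C5 the highest. Cell lysates were profiled by TempO-Seq, a targeted RNA assay that ligates a pair of neighbouring probes on each transcript and sequences the product. Each group held 3 libraries, 1 per cell batch, except panobinostat C3 and trichostatin A C4 with 2, giving 118 libraries. Library titles also carry a letter, read here as the plate. It was E for all libraries of scriptaid, tacedinaline and vorinostat, and H for those of the other chemicals. Chemicals on different plates therefore differ in plate as well.

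The labelled concentrations from C1 to C5 ran from 0.0417 to 0.86 µM for apicidin, from 0.177 to 3.9 µM for mocetinostat and from 0.00147 to 0.084 µM for panobinostat. They ran from 4.94 to 94.5 µM for scriptaid, from 1.14 to 44 µM for tacedinaline, from 0.0188 to 1.52 µM for trichostatin A and from 0.405 to 23.5 µM for vorinostat. Those of valproic acid are labelled 100 to 3038, and their unit is open because the treatment protocol gives far smaller numbers. Solvent controls were not used here, so C1 of the same chemical was the reference, and a change that C1 itself had caused would be missed. Each batch of cells gave 1 library per group, so p-values rest on the spread between libraries of different batches within groups. For the tests within a chemical that spread was taken over all 5 concentrations. Libraries were not paired by batch unless a batch block is named.

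Histone deacetylases take acetyl groups off histones, and their inhibitors alter the transcription of many genes. The lysosome is an acidic compartment in which proteases, glycosidases and lipases break down material from endocytosis and autophagy. A proton pump, the vacuolar ATPase, keeps it acidic, heavily glycosylated membrane proteins line it, and channels and transporters release what is broken down. Transcription factors of the TFEB family control many of these genes through promoter elements built around the letters CACGTG.

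A promoter sequence from RefSeq on GRCh38.p14, running from 250 bases before to 50 bases after a start site, was listed for 27 of the 37 genes. The letters CACGTG, which read the same on both strands, occurred in a listed promoter of 9 of these 27 genes, and of 2396 of 27305 genes in the whole table (8.77%). The longer form TCACGTG or its reverse complement CACGTGA, which overlaps the first, occurred in 8 of the 27 and in 4.49% of all genes. The members holding CACGTG were ATP6V0D1, CTSA, CTSD, CTSF, GAA, LAMP1, MCOLN1, NEU1 and, at 1 of its listed starts, CD63. The 200 bases before the start are given 5′ to 3′ on the gene's strand for 3 members whose transcript rose in 5 or more chemicals (ATP6V0D1, LAMP1 and MCOLN1), for 2 that hold the letters and rose in none at C5 (CTSD and GAA), and for CTSL, which holds none and fell in 6, with CACGTG in capitals. They lie at chr16:67481158-67481357 (minus strand), chr13:113297039-113297238 (plus), chr19:7522424-7522623 (plus), chr11:1763928-1764127 (minus), chr17:80101381-80101580 (plus) and chr9:87725919-87726118 (plus).
ATP6V0D1: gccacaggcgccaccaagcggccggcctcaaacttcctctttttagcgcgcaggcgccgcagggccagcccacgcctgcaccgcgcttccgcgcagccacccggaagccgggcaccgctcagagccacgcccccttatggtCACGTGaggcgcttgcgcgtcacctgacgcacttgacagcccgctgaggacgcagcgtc
LAMP1: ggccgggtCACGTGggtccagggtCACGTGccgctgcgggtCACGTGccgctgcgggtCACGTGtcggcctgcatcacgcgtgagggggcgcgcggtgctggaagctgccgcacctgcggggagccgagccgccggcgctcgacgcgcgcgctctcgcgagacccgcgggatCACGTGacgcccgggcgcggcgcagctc
MCOLN1: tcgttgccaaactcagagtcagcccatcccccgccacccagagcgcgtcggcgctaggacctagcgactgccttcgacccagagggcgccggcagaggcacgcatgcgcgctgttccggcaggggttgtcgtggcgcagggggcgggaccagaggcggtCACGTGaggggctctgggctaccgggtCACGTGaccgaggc
CTSD: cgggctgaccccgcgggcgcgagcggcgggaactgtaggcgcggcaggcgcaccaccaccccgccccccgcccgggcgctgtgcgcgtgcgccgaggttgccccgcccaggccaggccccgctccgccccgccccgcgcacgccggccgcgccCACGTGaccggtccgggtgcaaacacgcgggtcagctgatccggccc
GAA: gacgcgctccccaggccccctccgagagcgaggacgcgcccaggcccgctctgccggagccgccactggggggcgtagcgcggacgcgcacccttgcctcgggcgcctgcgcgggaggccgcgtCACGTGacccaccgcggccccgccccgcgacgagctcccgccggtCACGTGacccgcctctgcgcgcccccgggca
CTSL: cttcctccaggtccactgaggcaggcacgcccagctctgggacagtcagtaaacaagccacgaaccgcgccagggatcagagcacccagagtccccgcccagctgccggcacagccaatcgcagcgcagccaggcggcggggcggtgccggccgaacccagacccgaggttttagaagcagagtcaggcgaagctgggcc
The stretch of LAMP1 holds the letters 5 times, at positions -192, -176, -159, -142 and -28 from the start. MCOLN1 and GAA hold them 2 times each, at -41 and -14 and at -76 and -31. ATP6V0D1 and CTSD hold them 1 time, at -59 and -47. Among the printed members, picked by their changes here, the letters stood both in some that rose in most chemicals and in some that rose in none at C5. Members whose listed promoters lack the letters rose as well. LIPA, not printed here, rose in 5 chemicals, MAN2B1 in 4, and SQSTM1 in 4 with a fall in 1. For 10 members no promoter was listed, and a link between the letters and the changes was not tested. A match of letters is a description, not a binding site.

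Libraries held 1061359 to 5250260 counts (median 3702007). The mean total of the C5 group was 1485592 to 2325353 in the chemicals on plate E and 3462585 to 4078055 in those on plate H. Member features took 0.537% to 0.592% of the counts on average at C1 of the 8 chemicals. At C5 they took 0.722% to 0.790% in 7 chemicals and 0.583% in trichostatin A. Scaled by library totals alone, the median log2 change of all features from C1 to C5 was also positive in these 7 chemicals (0.0873 to 0.269). Levels are CPM, counts scaled to a common library size after TMM, and changes are log2 fold changes of C5 against C1. A feature was called, and said to have risen or fallen, at an adjusted p under 0.05 with a fold change of at least 1.5. Because probes differ in efficiency, levels are not compared between genes.

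Markers of other cell types and single libraries were checked first. The summed level of 12 features of hepatocyte markers such as ALB and CYP3A4 lay between 53162 and 96205 CPM in the C1 libraries of 7 chemicals and between 4097 and 32682 CPM in their C5 libraries. The summed macrophage markers lay between 15.1 and 46.9 CPM at C1 and between 2.71 and 17.8 CPM at C5 of these chemicals, with CD14 and ITGAM giving most of it and the defining PTPRC at 0 in every library. Stromal markers lay between 172 and 274 CPM at C1 and 98.4 and 235 CPM at C5, with THY1 at 2 counts or fewer, and biliary and progenitor markers between 65.1 and 149 CPM and 87.4 and 214 CPM, with EPCAM at 2 counts or fewer. Of the tested combinations of marker feature and chemical at C5, 81 of 96 hepatocyte ones fell, 7 of 17 macrophage ones fell, 27 of 64 stromal ones fell and 8 rose, and 11 of 33 biliary ones rose. Over all features 11.6% of such tests were rises and 13.4% falls, so the stromal rises were near that share. The part of these shifts in the member results was not tested, and in a lysate fewer cells of a type and less RNA per cell cannot be told apart. Several libraries differed from their group. In 8 of them the median correlation to all other libraries lay over 0.05 below the median of their group, namely replicate 1 of mocetinostat C2 (0.697), of mocetinostat C3 (0.792) and of apicidin C4 (0.804), replicate 2 of panobinostat C2 (0.859), and replicate 3 of scriptaid C4 (0.773), scriptaid C5 (0.719), trichostatin A C1 (0.840) and valproic acid C4 (0.809). In mocetinostat C2 replicate 2 was also low (0.789), with replicate 3 at 0.926. Without the 8 libraries the members called at C5 numbered 14 in apicidin, 21 in mocetinostat, 12 in panobinostat, 20 in scriptaid, 0 in trichostatin A and 7 in valproic acid. The share over all features in these fits is not given here, so the counts are not read as particular to the members. The calls of the fits on all libraries were kept. Tacedinaline and vorinostat hold none of the 8, so their 21 and 18 calls could not change. Of the other chemicals with calls, only scriptaid lost a C1 or C5 library. In the rest the C1 and C5 libraries compared stayed the same. In trichostatin A the hepatocyte sum ran from 17096 to 72314 CPM at C1 and from 45359 to 57241 CPM at C5.

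At C5, the share of member features that rose was above that of all features in 6 of the 8 chemicals. In these 6 the share that fell was below that of all features or, in tacedinaline, about the same (20% against 20.1%). In apicidin 8 of 40 rose and 5 fell, against 13.8% and 15% of all features. In mocetinostat 12 rose and 5 fell, against 14.8% and 15.7%. In panobinostat 7 rose and 3 fell, against 6.76% and 9.47%. In scriptaid 12 rose and 4 fell, against 12.8% and 17%. In tacedinaline 13 rose and 8 fell, against 18.7% and 20.1%. In vorinostat 12 of 38 rose and 6 fell, against 22.7% and 24.9%. Valproic acid gave 1 rise and 1 fall, against 4.84% and 6.22%, and trichostatin A gave no call among the members, against 0% and 0.0154%.

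These counts describe the list beside its background and were not tested against it. Over the 8 chemicals there were 65 rises and 32 falls in 318 tests, with a median log2 change of 0.16. The median change over all features tested lay between -0.0021 and 0.084 by chemical. In trichostatin A 1 member had an unadjusted p under 0.05 by edgeR, DESeq2 called 0, and without the C1 library of replicate 3 the count stayed 0. With library totals alone in place of TMM, the median change of all features was 0.269 in mocetinostat, 0.219 in tacedinaline, 0.157 in scriptaid, 0.156 in valproic acid and 0.101 in apicidin. The members' split moved from 13 rises and 8 falls to 17 and 6 in tacedinaline and from 1 and 1 to 7 and 0 in valproic acid. Over all features it moved from 2333 rises and 2506 falls to 3035 and 2071 in tacedinaline, and from 628 and 807 to 1005 and 617 in valproic acid. In valproic acid the fit with cell batch as a block called 4 members (3 rose, 1 fell).

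**Figure D1:**
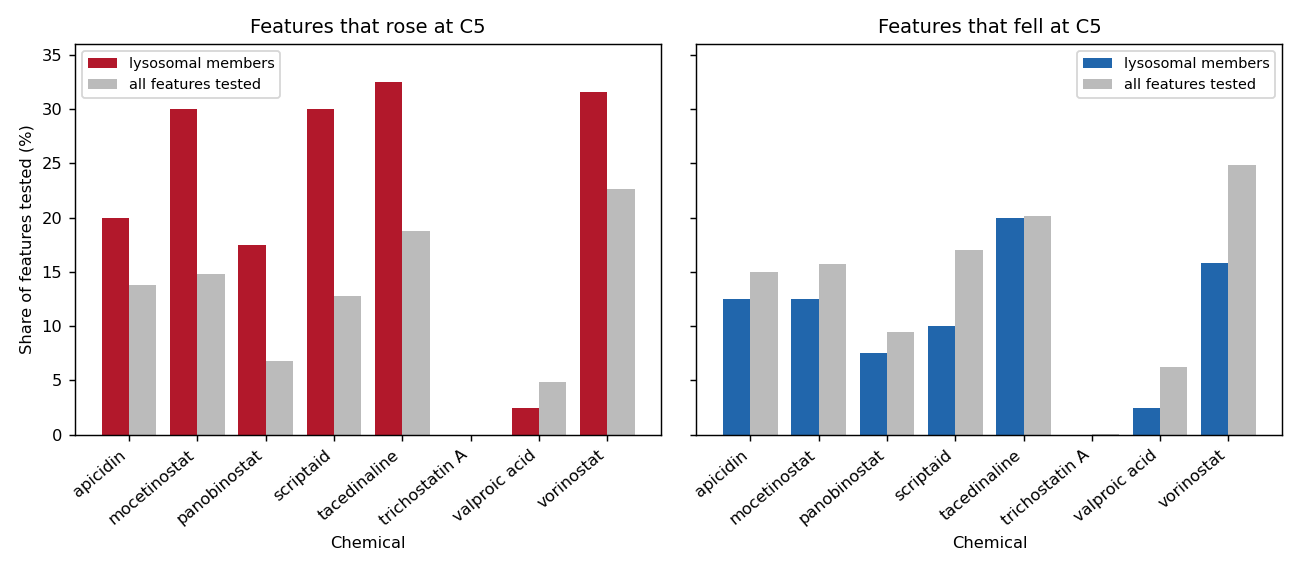
Share of tested features that rose (left) or fell (right) at C5 against C1, in percent, for the lysosomal members (coloured bars) and all features tested (grey bars) in each chemical. The members' bars for rises stand above the grey bars in apicidin, mocetinostat, panobinostat, scriptaid, tacedinaline and vorinostat, with no member called in trichostatin A.

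The number of member calls at C5 changed when a cell batch was left out, which also leaves fewer libraries. Counts over all features in these fits are not given here, so the changes are not read as particular to the members. The number of member calls fell in many of these fits and rose in some, among them fits of scriptaid and panobinostat. Without replicate 2, the members called went from 17 to 7 in mocetinostat and from 13 to 7 in apicidin, where leaving out replicate 3 also gave 7. Without replicate 1, they went from 10 to 6 in panobinostat. In scriptaid they went from 16 to 5 without replicate 1 and to 4 without replicate 2, and in valproic acid from 2 to 0 and to 1. Of the 97 calls at C5, 47 held whichever replicate was left out, and in none did the direction turn in any alternative.

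Over the 8 chemicals together, 11.6% of all tests at C5 were rises and 13.4% falls, and the counts by role are set beside these shares with no test. Proteases had 7 rises and 19 falls in 103 tests over the 8 chemicals (median log2 change -0.12), glycosidases 11 and 10 in 79 (0.052), lipid handling genes 16 and 0 in 48 (0.57), membrane proteins 17 and 2 in 56 (0.39) and the 3 proton pump members 10 and 0 in 24 (0.46). With library totals alone, proteases had 11 rises and 17 falls with a median of 0.010, so the sign of their median depends on the scaling, and glycosidases had 14 rises and 6 falls.

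**Figure D2:**
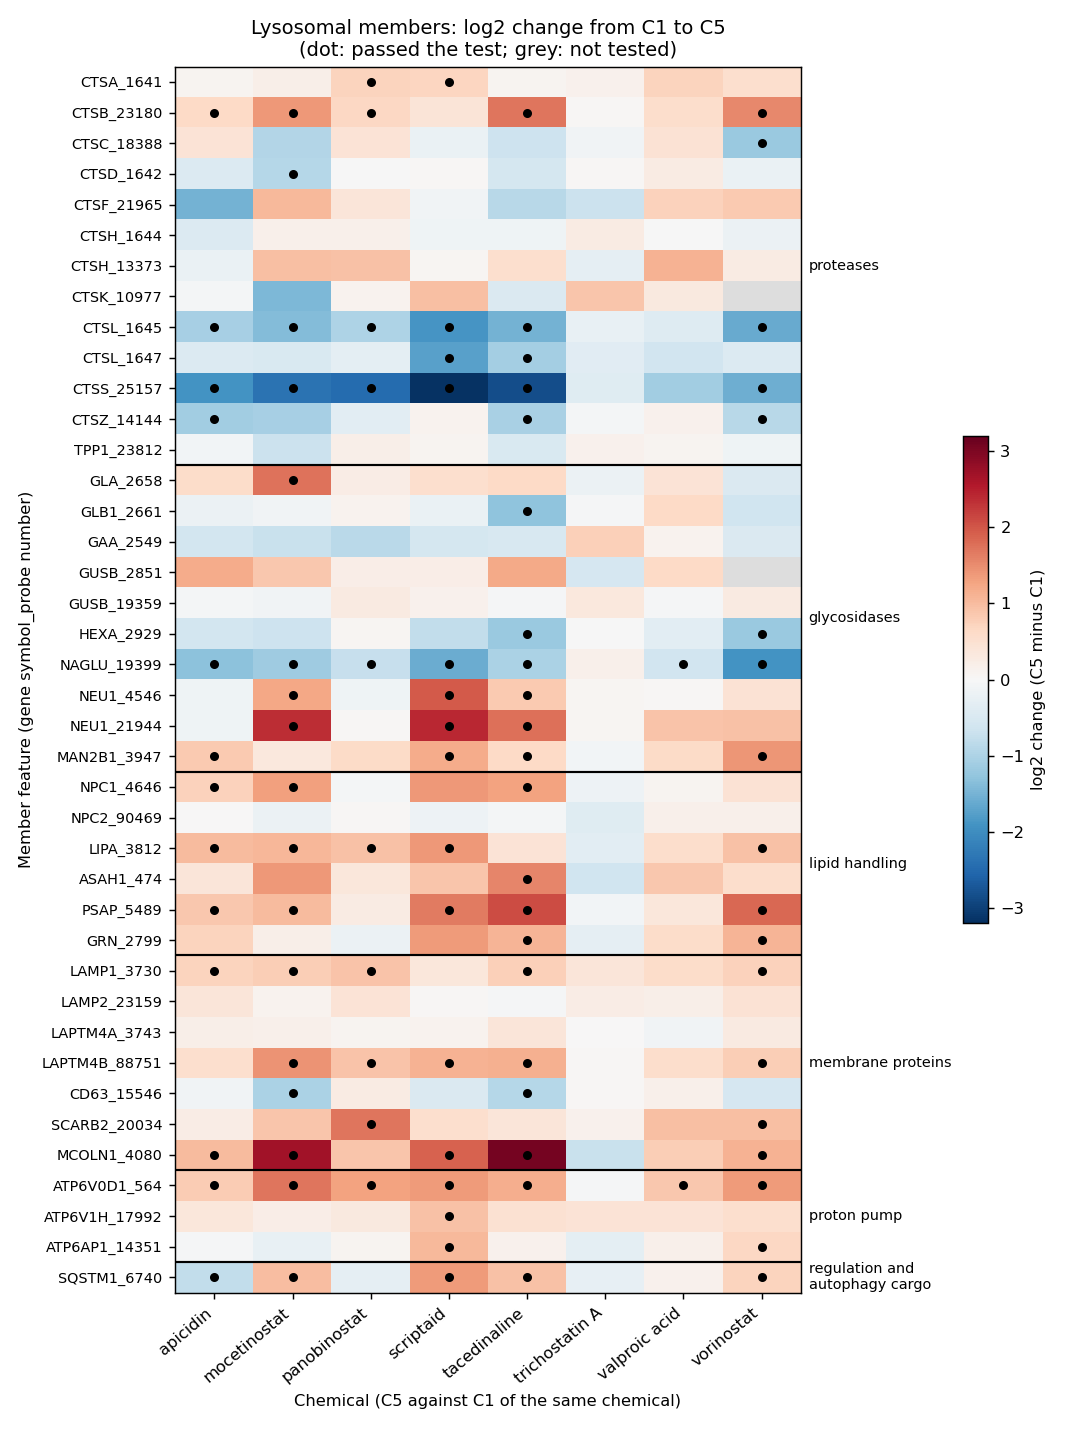
Log2 change from C1 to C5 for the 40 tested member features (rows, grouped by role) in the 8 chemicals (columns), with red for higher and blue for lower at C5. Dots mark features that passed the test and grey cells were not tested. Rows such as ATP6V0D1_564 and NAGLU_19399 carry dots of a single direction in 7 chemicals, while SQSTM1_6740 carries 4 rises and 1 fall.

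Among the proteases, the cysteine cathepsins moved in both directions. CTSB_23180, which encodes cathepsin B, an abundant endopeptidase that also trims from the chain end, rose in apicidin, mocetinostat, panobinostat, tacedinaline and vorinostat. In tacedinaline its level was 250, 201 and 249 CPM in the C1 libraries of replicates 1, 2 and 3 and 824, 711 and 774 CPM in those of C5. Every C5 library lay above every C1 library. The mean rose from 233 ± 27.7 to 770 ± 56.9 CPM (SD, n = 3), and the log2 change was 1.72 (SE 0.14, edgeR adjusted p = 4.31e-14). The log2 change was 1.53 in vorinostat, 1.40 in mocetinostat, 0.67 in panobinostat and 0.64 in apicidin, and 0.40 (adjusted p = 0.212) in scriptaid.

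CTSL_1645, for cathepsin L, an endopeptidase of the same family, fell in apicidin, mocetinostat, panobinostat, scriptaid, tacedinaline and vorinostat. In scriptaid its level was 170, 127 and 239 CPM at C1 and 66.8, 39.0 and 39.4 CPM at C5. The C1 and C5 libraries did not overlap, and the widest spread was at C1. The mean fell from 179 ± 56.1 to 48.4 ± 15.9 CPM, and the log2 change was -1.88 (SE 0.37, edgeR adjusted p = 8.73e-04). In the other 5 of these chemicals the change lay between -1.61 (vorinostat) and -0.996 (panobinostat). The second probe, CTSL_1647, had a log2 change of -1.75 in scriptaid and -1.10 in tacedinaline, both called, and between -0.62 and -0.31 in the other chemicals apart from trichostatin A, none called.

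CTSS_25157, for cathepsin S, best known from antigen-presenting cells, fell in the same 6 chemicals as CTSL_1645. In scriptaid its level was 21.7, 17.4 and 24.3 CPM at C1 and 3.61, 3.03 and 0 CPM at C5. All 3 C5 libraries were low, replicate 3 held no count, and the call was lost without replicate 2. The mean fell from 21.1 ± 3.50 to 2.21 ± 1.94 CPM, and the log2 change was -3.17 (SE 0.72, edgeR adjusted p = 0.00273). It had a median of 26 counts per library, and in vorinostat (-1.55) the call was lost without each of the 3 replicates and with library totals alone. Summed macrophage markers, mostly CD14 and ITGAM with PTPRC at 0 counts in every library, were also lower at C5, as given above. Their part in this result was not tested.

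The other proteases moved in fewer chemicals. CTSZ_14144, for the carboxypeptidase cathepsin Z, fell in apicidin (-1.12), tacedinaline (-1.04) and vorinostat (-0.89). CTSA_1641, for the carboxypeptidase that shields beta-galactosidase and neuraminidase in a complex, rose in panobinostat (0.72) and scriptaid (0.68). CTSC_18388, for dipeptidyl peptidase 1, fell in vorinostat (-1.18), where its C1 and C5 libraries overlapped, and CTSD_1642, for the aspartic protease cathepsin D, fell in mocetinostat (-0.91). CTSD_1642 was also called at C3 in vorinostat, where it rose, and CTSC_18388 at C4 in valproic acid. Neither was called at C5 in that chemical. TPP1_23812, for tripeptidyl peptidase 1, CTSF_21965, both features of CTSH, and CTSK_10977 were called in no chemical. CTSK_10977 was low and was not tested in vorinostat.

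Among the glycosidases and related enzymes, NAGLU fell in 7 chemicals, MAN2B1 rose in 4 and NEU1 rose in 3. NAGLU_19399, for the alpha-N-acetylglucosaminidase that acts on heparan sulfate, fell in the 7 chemicals other than trichostatin A. In vorinostat its level was 72.0, 77.5 and 63.0 CPM at C1 and 21.7, 6.77 and 29.8 CPM at C5. All C5 libraries lay below all C1 libraries, with replicate 2 the lowest. The mean fell from 70.8 ± 7.30 to 19.4 ± 11.7 CPM, and the log2 change was -1.91 (SE 0.32, edgeR adjusted p = 8.59e-06). In the other 6 chemicals the change ran from -1.58 (scriptaid) to -0.61 (valproic acid), and the call in valproic acid was lost without each replicate, with library totals alone and with no filter on low counts.

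Both features of NEU1, which encodes the lysosomal sialidase, rose in mocetinostat, scriptaid and tacedinaline. In scriptaid NEU1_4546 was at 48.1, 37.7 and 25.8 CPM at C1 and at 150, 169 and 114 CPM at C5, and the log2 change was 1.95 (SE 0.44, edgeR adjusted p = 0.00235). NEU1_21944 was at 6.70, 6.86 and 4.16 CPM and at 32.9, 39.6 and 21.3 CPM, and the log2 change was 2.40 (SE 0.44, edgeR adjusted p = 5.15e-04). Both probes separated the C1 from the C5 libraries. In apicidin and panobinostat the change of NEU1_4546 was -0.14 in each (adjusted p = 0.688 and 0.745).

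MAN2B1_3947, for lysosomal alpha-mannosidase, rose in apicidin (0.83), scriptaid (1.18), tacedinaline (0.65) and vorinostat (1.42). Its call in tacedinaline was lost without each of the 3 replicates. GLA_2658, for alpha-galactosidase A, rose in mocetinostat, from 18.3, 27.8 and 25.8 CPM at C1 to 78.8, 82.0 and 78.3 CPM at C5 (log2 change 1.73). HEXA_2929, for the alpha subunit of beta-hexosaminidase, fell in tacedinaline (-1.18) and vorinostat (-1.19), and GLB1_2661, for beta-galactosidase, fell in tacedinaline (-1.28). GAA_2549, for the alpha-glucosidase that degrades glycogen, and both features of GUSB, for beta-glucuronidase, were called in no chemical, and GUSB_2851 was not tested in vorinostat.

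Of the genes for lipid handling, none fell at C5 in any chemical. PSAP_5489, for prosaposin, the precursor of small proteins that present sphingolipids to hydrolases, rose in apicidin, mocetinostat, scriptaid, tacedinaline and vorinostat. In tacedinaline its level was 57.4, 61.1 and 70.8 CPM at C1 and 235, 245 and 336 CPM at C5. The lowest C5 library lay far above the highest C1 library. Its mean rose from 63.1 ± 6.94 to 272 ± 55.4 CPM, and the log2 change was 2.09 (SE 0.18, edgeR adjusted p = 3.61e-13). It was 1.84 in vorinostat, 1.67 in scriptaid, 1.01 in mocetinostat and 0.86 in apicidin, and 0.26 in panobinostat (adjusted p = 0.486).

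LIPA_3812, for lysosomal acid lipase, which hydrolyses cholesteryl esters and triglycerides, rose in apicidin, mocetinostat, panobinostat, scriptaid and vorinostat. In scriptaid its level was 86.1, 80.4 and 138 CPM at C1 and 302.8, 283 and 206 CPM at C5. Replicate 3 was the highest library at C1 and the lowest at C5, and the groups did not overlap. Its mean rose from 101 ± 31.6 to 264 ± 51.2 CPM, and the log2 change was 1.38 (SE 0.45, edgeR adjusted p = 0.0271), a call lost without replicate 1 and without replicate 2. In the other 4 of these chemicals the change lay between 0.93 and 1.07, and in tacedinaline it was 0.43, under the fold threshold.

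NPC1_4646, for the membrane protein that exports cholesterol from lysosomes, rose in apicidin (0.75), mocetinostat (1.31) and tacedinaline (1.29). In tacedinaline it was at 78.6, 62.9 and 51.8 CPM at C1 and at 148, 138 and 177 CPM at C5. In scriptaid its change of 1.38 had an SE of 0.57 and did not pass (adjusted p = 0.0732), and in panobinostat it was -0.06 (adjusted p = 0.905). Its soluble partner NPC2_90469 was called in no chemical, with changes between -0.18 and 0.15 in 7 chemicals. ASAH1_474, for acid ceramidase, rose in tacedinaline (1.55), and GRN_2799, for progranulin, a secreted glycoprotein that is also taken to lysosomes, rose in tacedinaline and vorinostat (1.08 in each). GRN_2799 had a median of 31.5 counts per library, and both of its calls were lost with no filter on low counts. The call in vorinostat was also lost without each of the 3 replicates, and that in tacedinaline without replicate 2 and without replicate 3.

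Of the membrane proteins, MCOLN1_4080, for the calcium-permeable channel TRPML1, had the largest rise of any member feature. It rose in apicidin, mocetinostat, scriptaid, tacedinaline and vorinostat. In tacedinaline its level was 5.30, 4.30 and 7.11 CPM at C1 and 39.6, 36.3 and 66.3 CPM at C5. All C5 libraries were high, replicate 3 most of all. The mean rose from 5.57 ± 1.42 to 47.4 ± 16.4 CPM, and the fitted fold change was 8.30 (log2 change 3.05, SE 0.36, edgeR adjusted p = 2.55e-09). The log2 change was 2.68 in mocetinostat, 1.90 in scriptaid, 1.11 in vorinostat and 1.00 in apicidin, where the call was lost without each of the 3 replicates.

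LAMP1_3730, for one of the glycoproteins that line the lysosomal membrane, rose in apicidin, mocetinostat, panobinostat, tacedinaline and vorinostat. In panobinostat its level was 274, 255 and 230 CPM at C1 and 561, 438 and 440 CPM at C5. Its mean rose from 253 ± 21.8 to 479 ± 70.6 CPM with no overlap, and the log2 change was 0.92 (SE 0.17, edgeR adjusted p = 5.88e-04). The change was between 0.70 and 0.78 in the other 4 of these chemicals, 0.60 in valproic acid and 0.37 in scriptaid, neither called. LAMP2_23159, for its close relative, was called in no chemical, with changes between -0.03 and 0.46 in 7 chemicals, where 0.46 in vorinostat had an adjusted p of 0.00238 but stayed under the fold threshold.

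LAPTM4B_88751 and LAPTM4A_3743 encode related membrane proteins of late endosomes and lysosomes, and only the first was called. In mocetinostat LAPTM4B_88751 was at 101, 130 and 101 CPM at C1 and at 296, 265 and 330 CPM at C5. The mean rose from 111 ± 16.5 to 297 ± 32.5 CPM, with all C5 libraries above all C1 libraries, and the log2 change was 1.43 (SE 0.20, edgeR adjusted p = 5.09e-05). It also rose in panobinostat (0.90), scriptaid (1.12), tacedinaline (1.14) and vorinostat (0.78). LAPTM4A_3743 had changes between -0.10 and 0.38 in 7 chemicals. The difference between these genes was not tested.

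SCARB2_20034, for the receptor that carries glucocerebrosidase to lysosomes, rose in panobinostat, from 34.4, 35.5 and 27.4 CPM at C1 to 118, 112 and 89.3 CPM at C5 (log2 change 1.71), and in vorinostat (0.96). CD63_15546, a tetraspanin of late endosomes and exosomes, was the member of this group that fell. In mocetinostat it was at 781, 882 and 882 CPM at C1 and at 381, 458 and 419 CPM at C5, and the log2 change was -1.02 (SE 0.18, edgeR adjusted p = 5.07e-04). In tacedinaline the change was -0.92 and was called. In panobinostat the level was 757, 730 and 903 CPM at C1 and 958, 910 and 986 CPM at C5 (log2 change 0.26, adjusted p = 0.275).

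ATP6V0D1_564, for subunit d of the membrane sector of the proton pump, rose in the 7 chemicals other than trichostatin A, as the only member feature to do so. In mocetinostat its level was 294, 309 and 181 CPM at C1 and 880, 920 and 768 CPM at C5. Replicate 3 was the lowest library in both groups, and the groups were far apart. Its mean rose from 261 ± 70.1 to 856 ± 78.6 CPM, and the log2 change was 1.71 (SE 0.37, edgeR adjusted p = 0.00200). In the other 6 chemicals the change ran from 0.81 (apicidin) to 1.37 (vorinostat), including 0.86 in valproic acid. In 4 of the 7 chemicals the call was lost with fewer libraries, namely without replicate 2 in mocetinostat, without replicate 3 in apicidin, and without replicate 1 or replicate 2 in scriptaid and valproic acid. In trichostatin A the level was 272, 276 and 423 CPM at C1 and 309, 372 and 273 CPM at C5.

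The other pump members moved less often. ATP6AP1_14351, for an accessory subunit, rose in scriptaid (1.03) and vorinostat (0.66), and ATP6V1H_17992, for subunit H of the cytosolic sector, rose in scriptaid (0.94). The 13 further features of pump subunits not among the members were read in the same fits, and none fell in any chemical. Of those tested, 3 of 11 rose in apicidin, 8 of 13 in mocetinostat, 1 of 12 in panobinostat, 8 of 12 in scriptaid, 9 of 12 in tacedinaline, 1 of 12 in valproic acid, 9 of 11 in vorinostat and 0 of 12 in trichostatin A. All features rose in 13.8%, 14.8%, 6.76%, 12.8%, 18.7%, 4.84%, 22.7% and 0% of tests in the same order of chemicals, so the single rises in panobinostat and valproic acid were near that share. Their median log2 change was 1.29 in vorinostat, 1.16 in scriptaid, 0.99 in tacedinaline and 0.83 in mocetinostat. ATP6V1D_574 rose in 7 chemicals, by 0.69 to 2.12, and ATP6V1B2_17790 in 5. With library totals alone 46 of the 95 tests rose in place of 39, and none fell.

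**Figure D3:**
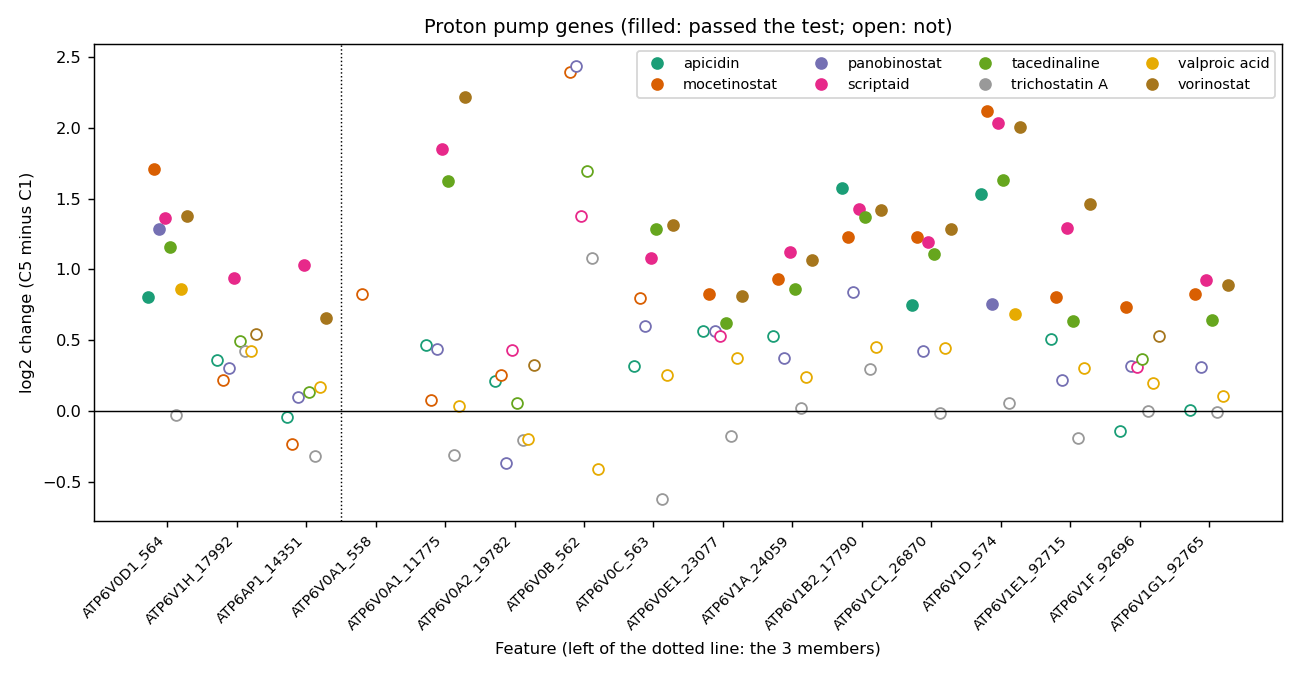
Log2 change from C1 to C5 of the proton pump features, with the 3 members left of the dotted line and 13 further features right of it, coloured by chemical. Filled points passed the test and open points did not. All filled points lie above 0, and trichostatin A (grey) has open points alone.

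SQSTM1_6740, for p62, the receptor that links ubiquitinated cargo to the autophagy membrane, was the only member feature called in both directions at C5. It rose in mocetinostat (0.98, a call lost without each of the 3 replicates), scriptaid (1.36), tacedinaline (0.93) and vorinostat (0.72). In scriptaid its level was 129, 150 and 83.4 CPM at C1 and 420, 365 and 142 CPM at C5. Replicate 3 was far lower than the other 2 C5 libraries and lay within the range of C1, so the groups overlapped. The log2 change had an SE of 0.46 and an edgeR adjusted p of 0.0326, and the call was lost without replicate 1 and without replicate 2. In apicidin it was at 137, 146 and 111 CPM at C1 and at 67.4, 76.6 and 85.2 CPM at C5. There the mean fell from 132 ± 18.1 to 76.4 ± 8.89 CPM with no overlap, and the log2 change was -0.78 (SE 0.25, edgeR adjusted p = 0.0189), and the call was lost without replicate 2 and without replicate 3.

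**Figure D4:**
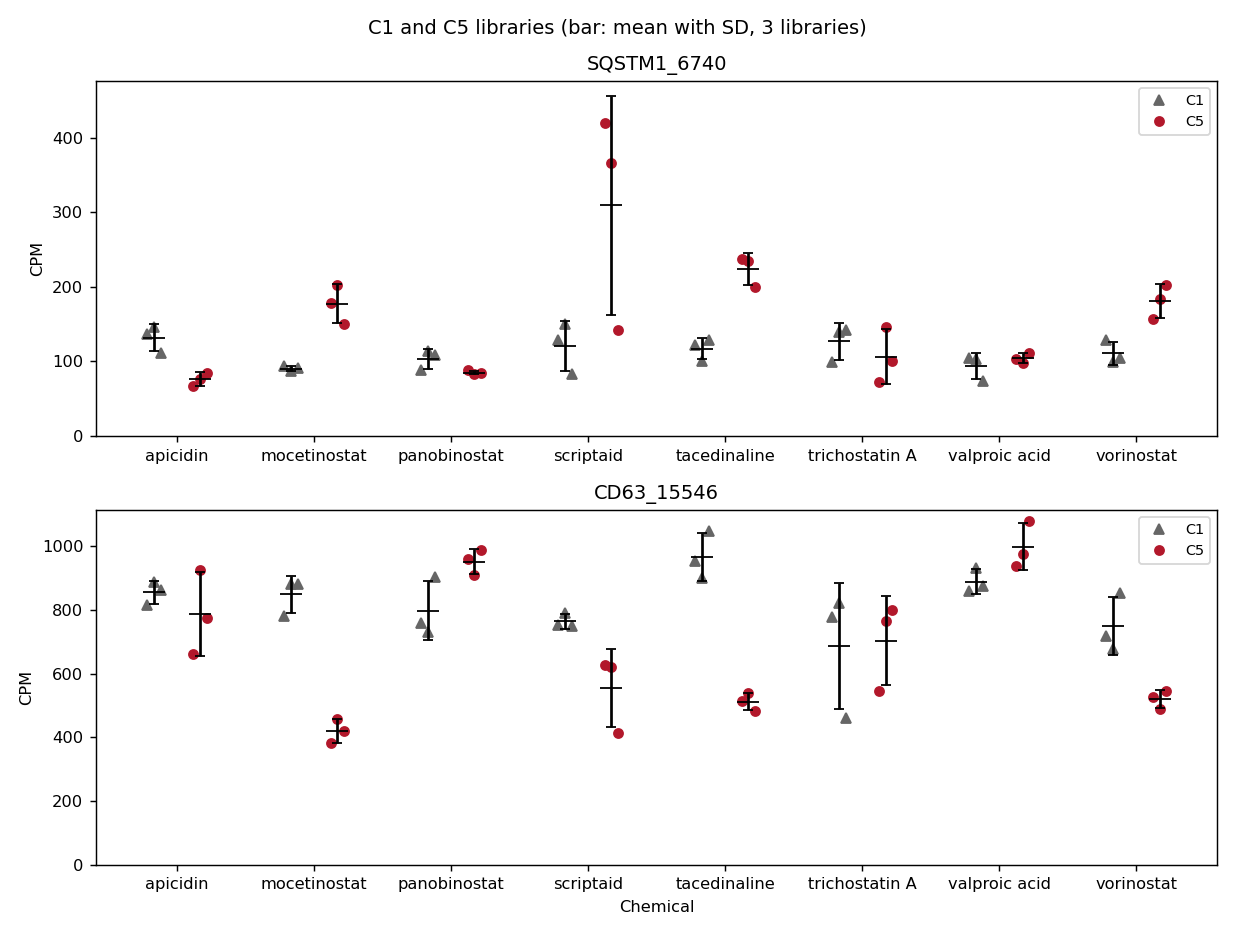
CPM of SQSTM1_6740 (top) and CD63_15546 (bottom) in each C1 library (grey triangles) and C5 library (red circles) of the 8 chemicals, with mean and SD over 3 libraries. SQSTM1_6740 is lower at C5 in apicidin and higher in mocetinostat, scriptaid, tacedinaline and vorinostat, and CD63_15546 is lower at C5 in mocetinostat and tacedinaline.

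The change from C1 to C5 differed among the 7 chemicals other than trichostatin A for 23 of the 40 member features, against 34.4% of all features, by an edgeR F test with 6 degrees of freedom. The lowest adjusted p-values were those of CD63_15546 (6.36e-10), CTSB_23180 (1.84e-09), PSAP_5489 (4.48e-09), SQSTM1_6740 (7.10e-08), NPC1_4646 (9.81e-08) and NEU1_4546 (1.05e-07). C5 is not the same dose in each chemical, so the test says that these contrasts differ and not that the chemicals differ at a matched dose. Among the 4 of these chemicals on plate H alone 18 features differed, against 25.9% of all features, and among the 3 on plate E alone 6, against 6.82%. PSAP_5489 passed within neither plate (adjusted p = 0.0714 on plate H and 0.536 on plate E), and CD63_15546 and SQSTM1_6740 did not pass on plate E (0.238 and 0.420). Without replicate 1, the count over both plates was 12 in place of 23. For LAMP1_3730, MAN2B1_3947 and ASAH1_474 the test did not pass, which does not show that their changes were alike.

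The labelled doses of chemicals that share a structural group also differ, and each such group spans both plates, so their values are only set side by side. Mocetinostat and tacedinaline are benzamides, and panobinostat, scriptaid, trichostatin A and vorinostat are hydroxamic acids, while valproic acid is a branched carboxylic acid and apicidin a cyclic peptide. For CTSB_23180 the log2 change at C5 was 1.40 and 1.72 in the benzamides and 0.67, 0.40, 0.04 and 1.53 in the hydroxamic acids, in the order just given. For MCOLN1_4080 it was 2.68 and 3.05, against 0.88, 1.90, -0.71 and 1.11. For CD63_15546 it was -1.02 and -0.92, against 0.26, -0.46, 0.03 and -0.53. Other features were ordered otherwise. NEU1_4546 (1.95), NEU1_21944 (2.40) and SQSTM1_6740 (1.36) had their highest change in scriptaid, a hydroxamic acid. PSAP_5489 rose less in the benzamide mocetinostat than in scriptaid and vorinostat.

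Calls among the members appeared from C3 upward. At C2 none of 318 tests was called by edgeR, against 0.0659% rises and 0.0206% falls over all features, with 0 to 8 members per chemical at an unadjusted p under 0.05 and 1 call by DESeq2. At C3 there were 17 rises and 4 falls, against 2.82% and 3.16%, in mocetinostat (7 calls), tacedinaline (6), apicidin (5) and vorinostat (3). At C4 there were 42 rises and 15 falls, against 7.85% and 8.14%. PSAP_5489 was called at C3 in 4 chemicals, with changes of 0.69 in apicidin, 1.12 in mocetinostat, 1.02 in tacedinaline and 0.71 in vorinostat. NPC1_4646 was called at C3 in mocetinostat (1.38) and, in the other direction, in vorinostat (-0.72), where at C5 its change was 0.45 and not called. Without replicate 2 the calls at C3 were 7 in place of 21, without the 8 libraries far from their group they were 33, and without a set of 4 (replicates 1 and 2 of mocetinostat C2, replicate 3 of scriptaid C4 and of trichostatin A C1) 32. At C2 leaving out replicate 3 gave 13 calls in place of 0, all in mocetinostat, where replicates 1 and 2 of C2 were low in correlation, and leaving out the 8 or the 4 libraries gave 0.

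**Figure D5:**
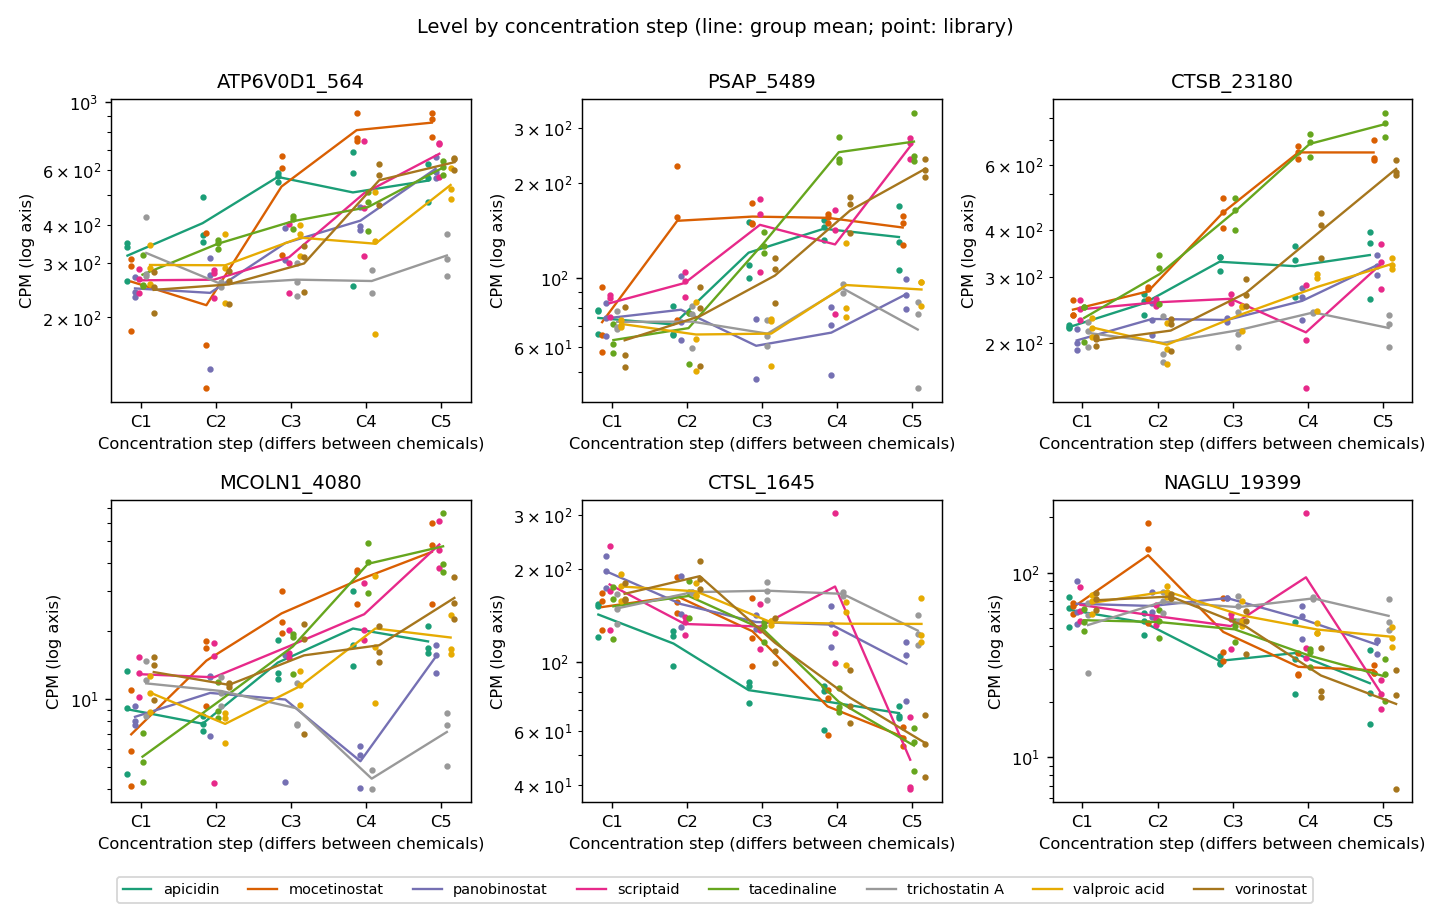
CPM on a log axis of 6 member features at steps C1 to C5, with a line for the mean of each chemical's group and a point per library. The steps stand for different concentrations in each chemical. ATP6V0D1_564, PSAP_5489, CTSB_23180 and MCOLN1_4080 are higher and CTSL_1645 and NAGLU_19399 lower at C5 than at C1 in most chemicals, and trichostatin A (grey) stays near its C1 level. Single points far from their group include those of mocetinostat C2 and scriptaid C4, where libraries differed from their group.

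Other lists of the lysosomal and autophagy system were read in the same fits at C5. Their counts over the 8 chemicals stand beside the shares of 11.6% rises and 13.4% falls over all features. Of 203 tests of other lysosomal hydrolases 21 rose and 40 fell (24 and 29 with library totals alone). CTSO_11581, for cathepsin O, fell in 7 chemicals, as did IDUA_15623, for alpha-L-iduronidase. Other lysosomal membrane proteins had 28 rises and 5 falls in 114 tests, with SLC36A1_23102, for a proton-coupled amino acid transporter, rising in 7 chemicals, by 1.31 to 2.37. Genes for sorting to the lysosome had 11 rises and no fall in 54 tests, and GNPTAB_91286, for the enzyme that starts the mannose 6-phosphate tag, rose in 4 chemicals. The gene's second feature, GNPTAB_90845, was tested in 5 chemicals and called in none. The TFEB family and the genes that control it had 13 rises and 1 fall in 116 tests (13 and 6 in 119 without the 8 libraries far from their group), with LAMTOR2_24790 and RRAGA_6028, for parts of the complex that brings mTORC1 to lysosomes, rising in 3 chemicals each. Autophagy genes had 29 rises and 4 falls in 139 tests. MAP1LC3A_21677, for an LC3 protein of the autophagosome membrane, rose in 7 chemicals (0.81 to 1.59), while the gene's second feature MAP1LC3A_3963, tested in 8, rose in 1. GABARAPL2, of the same family, rose in 6 with both of its features.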

How the data were processed

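The authors deposited unnormalised counts of reads for each detector probe, whole numbers, with libraries as columns. The submitters' processing notes name bcl2fastq 2.20.422, fastp 0.23.2, STAR 2.7.10b and DESeq2 1.38.0, with no role or order. The genome build and the probe annotation are not given in the sources used here, and probe sequences were not used here. Of 22069 rows 1 lacked values in 88 libraries and was left out. No 2 libraries held identical counts. Depth was 1061359 to 5250260 counts per library, so low features rest on few reads.

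Libraries were grouped by the labels. For each chemical, counts of all its libraries were fitted with edgeR 4.0.16 (R 4.3.3) by quasi-likelihood, after filterByExpr and TMM scaling, and C2, C3, C4 and C5 were each tested against C1, with Benjamini-Hochberg adjustment over all features tested. A call needed an adjusted p below 0.05 together with a 1.5-fold change or more. A further F test over the C1 and C5 libraries asked whether the C5 change differed among 7 chemicals. Trichostatin A was left out of it because earlier results of these data showed few calls there. Tests were checked on simulated counts with known changes. Replicate numbers stand for HepaRG cell batches per the labels, which pairs libraries between groups. As a check, library deviations from their group means were correlated, with a median r of 0.030 over 232 pairs from the same batch and -0.012 over 464 pairs from different ones.

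Every library's values are given for members called at C5 in one direction in at least 5 chemicals, or in both directions, in the chemical of their largest called change. Other members with such values were added after they were seen. Members and lists were chosen with earlier results of these data known. The lists were other lysosomal hydrolases, other lysosomal membrane proteins, other proton pump subunits, sorting to the lysosome, the TFEB family and its control, autophagy genes, and hepatocyte, biliary and progenitor, macrophage and stromal markers. From each pathway list at most 2 genes with the most calls were named, and 1 result is not reported here. Alternatives were median-of-ratios scaling, library totals, no filter, a replicate block, each replicate left out, DESeq2 1.42.0, a trend on log2 concentration and no fold threshold. The fits on C1 and C5 libraries alone and without 4 or 8 libraries of low correlation were chosen after seeing the data.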

Additional observations from a re-analysis of the deposited data

Results flagged for a closer look

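The change from C1 to C5 differed among the 7 chemicals other than trichostatin A for 23 member features by edgeR's F test, which drew attention because the contrast is nominally the same in each chemical. The adjusted p was 6.36e-10 for CD63_15546, 1.84e-09 for CTSB_23180, 4.48e-09 for PSAP_5489, 7.10e-08 for SQSTM1_6740, 9.81e-08 for NPC1_4646 and 1.05e-07 for NEU1_4546. Within plates, PSAP_5489 passed on neither (adjusted p = 0.0714 on plate H and 0.536 on plate E), and CD63_15546 and SQSTM1_6740 did not pass on plate E (0.238 and 0.420). Of the 23 features, 11 also differed whichever replicate was left out. Concentrations, and for some pairs plates, differ between chemicals, and their part in these differences cannot be told apart from that of the chemical.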

How the results depend on the processing

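At C5 the members called numbered 7 to 12 when a replicate was left out in apicidin (13 with all), 7 to 16 in mocetinostat (17), 6 to 11 in panobinostat (10), 4 to 21 in scriptaid (16) and 0 to 2 in valproic acid (2). Over the 8 chemicals they numbered 0 to 13 at C2 (0) and 7 to 19 at C3 (21), and 12 to 21 features differed among 7 chemicals (23). A trend on log2 concentration called 9 in scriptaid and 6 in valproic acid. In valproic acid 7 were called with library totals, 5 with no filter, 5 by DESeq2, 5 with no fold threshold and 8 with C1 and C5 libraries alone. With cell batch as a replicate block 4 were called there, and the block moved no other count by over 1.5 times. At C2 no filter and DESeq2 each called 1. At C3 32 were called without a set of 4 libraries with low correlations, and 33 without the 8 libraries far from their group, which also gave 7 in valproic acid. Plate E chemicals alone gave 6 features that differed. These are counts of members, without the share over all features in the same fits. The cause of these shifts was not tested, beyond the fewer libraries in some of these fits. Of the 97 calls at C5, 45 held in every alternative fit, 97 with the replicate block, 97 with DESeq2 and 91 with library totals, and none turned in direction. For the members called at C5 in one direction in at least 5 chemicals, or in both directions, 612 of 670 alternative values kept their side of the threshold, 58 lost the call and 0 reversed. The other members given by library are not in this count. CTSS_25157, at a median of 26 counts per library, has little depth behind its values.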
